A study of Arabidopsis thaliana with 12 samples.

Results

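The leaf transcriptome of the Arabidopsis thaliana hybrid Col-0×Aa-0 was compared with its mid-parent, the level expected for each gene if both parental alleles contributed equally and independently. The mid-parent was the arithmetic mean of the Col-0 mean and the Aa-0 mean. Genes were compared where at least 2 of the 8 libraries of the hybrid and its parents reached 1 FPKM, a read level scaled to transcript length and library total, which left 16924 of the 34133 genes in the files. The groups were Col-0, the accession behind the reference genome (4 libraries), Aa-0, a second natural accession (2 libraries), and the hybrid of the pair (2 libraries), with no treatment named in the labels. RNA came from the first leaf of seedlings aged 14 days and raised on MS plates that held 1% sucrose. The series concerns the genetic basis of biomass heterosis and also holds Per-1 and Col-0×Per-1, with 2 libraries each. The labels do not say whether replicates were separate plants, so a p-value here reflects the spread among these libraries, part or all of which may be technical.

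Heterosis is the growth of a hybrid beyond that of its parents. At the level of a single gene, expression is called additive when the hybrid lies midway between its parents, dominant when it lies at the level of one parent, and overdominant when it lies outside both. A gene whose transcription depends only on its own allele gives an additive level, since each parental copy is present once in the hybrid. A gene that answers to regulators shared by both alleles, or to silencing of one allele by the other, can depart from the mean.

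Genes that are active in one parent alone showed both parental genomes in each hybrid library. There were 37 genes with at least 5 FPKM in every Col-0 library and at most 0.1 in every Aa-0 library, and all 37 were above 0 in both hybrid libraries, at a median of 51.8% of the Col-0 mean. The 11 genes found by the reverse rule were all above 0 in both hybrid libraries as well, at a median of 46.3% of the Aa-0 mean. Between 20936 and 21781 genes were above 0 per library. Depth is unknown, because the values are not counts and the spacing of low values gave no dependable estimate. Mesophyll markers were abundant, with a sum of 29216 to 51930 FPKM per library. Shoot meristem (6 of 6), floral (5 of 5) and most root markers (7 of 9) were under 1 FPKM in all 8 libraries. In bulk leaves, fewer cells of a type and less RNA per cell cannot be told apart.

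The Col-0 libraries were not alike. Replicates 1 and 2 differed from replicates 3 and 4 in 20 of 21 circadian clock genes without overlap, by more than 2-fold in 17 of them. The share of all tested genes that the pairs separate in this way was not counted, and 2 libraries against 2 can separate by order alone. CCA1, a morning clock repressor, had 106 and 116 FPKM in the first pair against 8.58 and 9.01 in the second. The hybrid libraries lay between these pairs for 16 of the 21 genes. The first pair also listed the Rubisco gene RBCS1A at 0, where the second had 19509 and 19500 FPKM. With replicates 1 and 2 as the only Col-0 parent, 10 named genes passed against the mid-parent that did not pass with all Col-0 libraries, and with replicates 3 and 4 the number was 0. The values with each pair stand beside those genes.

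Most genes could be placed close to the mid-parent. The 95% interval of the log2 difference between hybrid and mid-parent lay wholly within 1.5-fold for 11734 genes, which is 69.3% of those tested. The difference was taken on FPKM + 1, which understates changes of low genes, here and in the gene lists below. With 0.1 FPKM added in place of 1 the count was 9243 (54.6%). Another 5149 genes (30.4%) had an interval that reached beyond 1.5-fold without passing the test, so they were neither shown to be additive nor shown to depart. The median log2 difference was -0.06, with quartiles of -0.16 and 0.04, and the median half-width of the interval was 0.33.

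Departures from the mid-parent were few. By limma, with Benjamini-Hochberg adjustment over all genes tested at a threshold of 0.05, 41 genes passed, which is 0.242% of those tested. Of these, 22 (0.13%) were above the mid-parent and 19 (0.112%) below it. At an unadjusted p under 0.05 the number was 680, or 4.02%. The count moved with the libraries that entered it. It was 6 or 4 without the first or second hybrid library, 16 without Aa-0 replicate 1, and 11 with the spread taken from the 8 libraries alone. With Col-0 replicates 1 and 2 as the only Col-0 parent it was 368, and with replicates 3 and 4 it was 48.

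**Figure D1:**
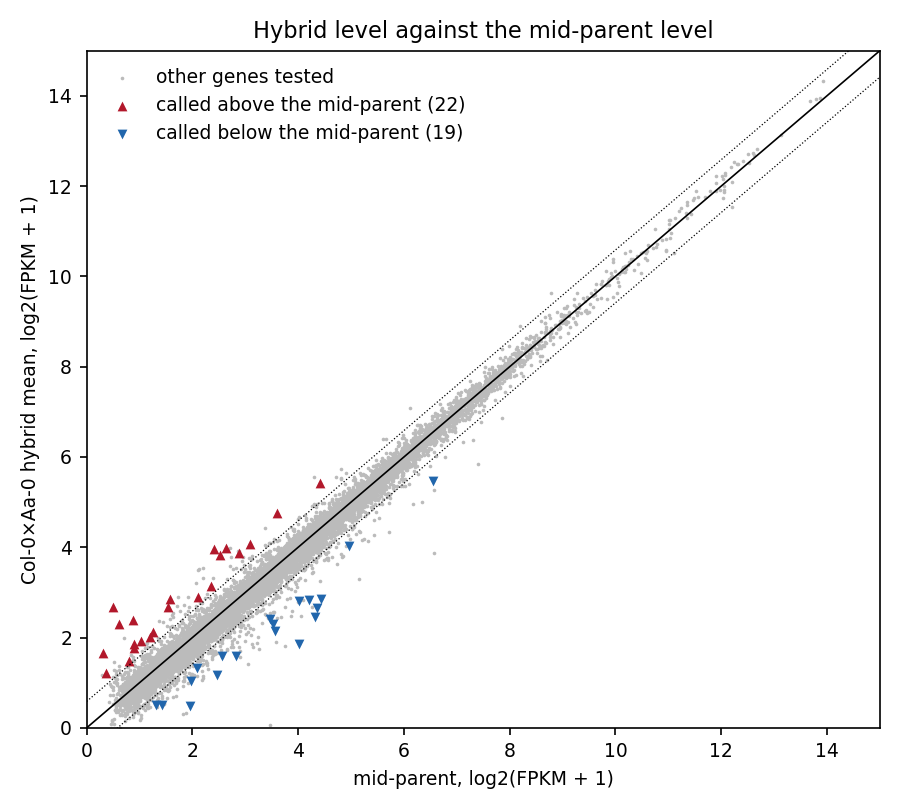
Mean level of the hybrid (vertical axis) against the mid-parent level (horizontal axis), both as log2(FPKM + 1), for the 16924 genes tested, with the solid line at equality and dotted lines at 1.5-fold. The 22 genes called above and 19 called below the mid-parent lie outside the dotted lines and mostly at low levels. Other genes also lie outside them, down to a log2 difference of -3.40, and 5149 genes were not resolved.

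Genes that differ strongly between the parents allow the hybrid to be placed between them. Col-0 and Aa-0 differed in 2837 genes (16.8% of those tested), 2041 higher in Col-0 and 796 higher in Aa-0, and 1886 of the 2837 (66.5%) had a hybrid level held within 1.5-fold of the mid-parent. For 228 genes the parents differed at least 4-fold with at least 5 FPKM in the higher parent, and here the hybrid was placed on a scale from 0, the Col-0 level, to 1, the Aa-0 level. The 161 genes higher in Col-0 had a median position of 0.54, with 0.56 and 0.50 in the separate hybrid libraries, and 153 of them lay between the parents. The 67 genes higher in Aa-0 had a median position of 0.44, with 0.47 and 0.39 in the libraries, and 63 lay between. Held within 1.5-fold of the mid-parent were 46 of the 161 (28.6%) and 24 of the 67 (35.8%), beside 66.5% of all genes on which the parents differ, and 5 and 9 passed against it. No gene of either group lay beyond the Aa-0 level, whereas 8 and 4 lay beyond the Col-0 level. With Col-0 replicates 1 and 2 alone the first median was 0.60.

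**Figure D2:**
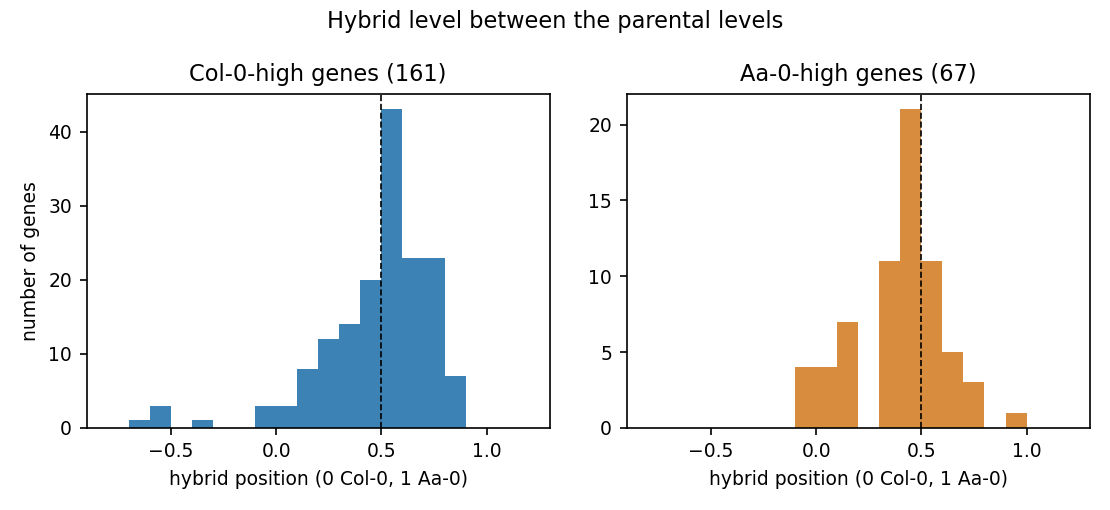
Number of genes (vertical axis) by the position of the hybrid mean between the parental means (horizontal axis, in FPKM, 0 at Col-0 and 1 at Aa-0), for 161 genes at least 4-fold higher in Col-0 and 67 at least 4-fold higher in Aa-0. The bars gather near the dashed line at 0.5, with medians of 0.54 and 0.44, and a tail of both groups reaches the Col-0 level.

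Among the 8 genes with the widest parental gaps at 20 FPKM or more, the position of the hybrid ran from 0.10 to 0.67. AT3G62530 stood at 167 to 208 FPKM in Col-0, at 0.05 and 0 in Aa-0, and at 76.7 and 94.3 in the hybrid, which gives a position of 0.54. ECS1 stood at 525 to 898 FPKM in Col-0, at 0.21 and 0.16 in Aa-0, and at 479 and 291 in the hybrid, a position of 0.48. In both genes the hybrid libraries lay below every Col-0 library and far above Aa-0. AT1G25098, a noncoding RNA, ranged from 67.6 to 113 FPKM in Col-0, with 0.06 and 0.07 in Aa-0 and 60.1 and 33.5 in the hybrid. HPL1, a hydroperoxide lyase that makes green leaf volatiles, was at 0.78 to 1.74 FPKM in Col-0, at 110 and 116 in Aa-0, and at 56.9 and 38.5 in the hybrid, a position of 0.42. The hybrid again fell between the parents without overlap. AT5G42530 was closer to Col-0, with 457 to 1210 FPKM in Col-0, against 0.69 and 0.22 in Aa-0, and 1044 and 539 in the hybrid. Its position was 0.10, but the log2 difference from the mid-parent of 0.85 ± 0.42 (SE) did not pass (adjusted p = 0.998). The hybrid lay nearer to Col-0 in MBP1 and AT3G24542, both higher in Aa-0. MBP1, a myrosinase-binding protein, was at 1.94 to 2.37 FPKM in Col-0, with 111 and 94.8 in Aa-0, and 50.5 and 20.4 in the hybrid, and AT3G24542, at 0 in Col-0 and 46.03 and 19.99 in Aa-0, was at 11.8 and 10.7, which gives positions of 0.33 and 0.34. ESP, described with the glucosinolate genes, was the gene of the 8 nearest to Aa-0, at 0.67.

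The 41 genes that departed from the mid-parent were mainly genes on which the parents differ. The parents differed in 37 of them, and 37 of the 2837 such genes is 1.30%, against 4 of the 14087 genes without a called parental difference. Of the 41, 30 differed from Aa-0 and not from Col-0, 1 differed from Col-0 and not from Aa-0, 2 lay between the parents and differed from both, and 8 lay above both. Each class rests on the tests against Col-0, which 2.32% of all tested genes passed, and against Aa-0, which 2.75% passed. Over all tested genes the corresponding counts were 293, 221, 164 and 8. Of the 22 above the mid-parent, 17 were higher in Col-0 than in Aa-0, and of the 19 below it, 17 were higher in Aa-0. A position within 0.25 of the Col-0 level was found for 20 of the 37. The choice of genes used these same contrasts, so the shares describe the called genes and test nothing further. Chromosome 5 held 17 of the 41 genes (41.5%), against 22.9% of all tested genes.

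Among the genes above the mid-parent, several were nearly silent in Aa-0. AT4G16400, an uncharacterized protein, was at 12.6, 12.3, 13.1 and 12.1 FPKM in Col-0, at 0.23 and 0.31 in Aa-0, and 12.2 and 15.3 in the hybrid. The hybrid overlapped Col-0, and the log2 difference from the mid-parent was 0.99 ± 0.11 (SE; adjusted p = 0.0053). AT3G52070, annotated as a phosphatase that binds ribonucleoprotein complexes, was at 9.06 to 10.96 FPKM in Col-0, against 0.38 and 0.53 in Aa-0, and 15.9 and 13.6 in the hybrid. Both hybrid libraries were above every Col-0 library (log2 difference 1.35 ± 0.13, adjusted p = 0.00357). MRD1, a gene named for its fall in the Arabidopsis mto1 mutant, was at 8.0 to 9.34 FPKM in Col-0, with 0.40 and 1.15 in Aa-0, and 13.1 and 13.4 in the hybrid. It too exceeded every Col-0 library (1.31 ± 0.15, adjusted p = 0.00763). AT1G78265, a noncoding RNA, was at 3.14 to 4.50 FPKM in Col-0, at 0.03 and 0.04 in Aa-0, and 4.85 and 6.0 in the hybrid (1.14 ± 0.14, adjusted p = 0.00927).

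In 4 further genes above the mid-parent the level was also higher in Col-0 than in Aa-0. AT5G01595, a noncoding RNA, was at 5.74 to 10.5 FPKM in Col-0, against 0 and 0.06 in Aa-0, and 10.6 and 18.5 in the hybrid. The call was lost under 14 of 24 alternatives (log2 difference 1.55 ± 0.23, adjusted p = 0.0324). AT1G21770, an acyltransferase of the NAT family, was at 24.1 to 37.9 FPKM in Col-0, with 8.51 and 10.6 in Aa-0, and 41.2 and 42.1 in the hybrid, above every parental library (1.01 ± 0.15, adjusted p = 0.0329). AT5G22210, annotated as a subunit of a tRNA amidotransferase, was at 9.25 to 12.2 FPKM in Col-0, at 4.18 and 4.96 in Aa-0, and 17.5 and 14.0 in the hybrid (0.99 ± 0.14, adjusted p = 0.0279). AT5G02370, a kinesin-like motor protein, was at 5.35 to 6.45 FPKM in Col-0, against 0.59 and 0.98 in Aa-0, and 7.01 and 5.95 in the hybrid (0.80 ± 0.12, adjusted p = 0.0283). The last 3 of these calls were lost under 11 to 15 of their alternatives. Both hybrid libraries lay above every parental library in 17 of the 22 genes, against 0.928% of all tested genes.

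Genes below the mid-parent were mostly high in Aa-0 and at the Col-0 level in the hybrid. HYR1, a glycosyltransferase named for resistance to the small molecule hypostatin, was at 5.13, 6.99, 7.29 and 7.49 FPKM in Col-0, with 30.4 and 33.8 in Aa-0, and 5.67 and 5.02 in the hybrid. One hybrid library lay at the low end of the Col-0 range and the other just under it, with a log2 difference from the mid-parent of -1.68 ± 0.16 (SE; adjusted p = 0.0032). AT2G47115, whose annotation names no established function, was at 6.53 to 7.55 FPKM in Col-0, at 34.5 and 34.1 in Aa-0, and 5.51 and 6.98 in the hybrid. It was 1 of 4 named genes called under every alternative run for them (-1.58 ± 0.12, adjusted p = 0.00166). SDH3-2, a subunit of succinate dehydrogenase in the respiratory chain, was at 12.5 to 14.4 FPKM in Col-0, against 48.4 and 46.1 in Aa-0, and 14.97 and 15.58 in the hybrid. Here the hybrid lay just above every Col-0 library (-0.94 ± 0.10, adjusted p = 0.0053). AT3G10113, a homeodomain-like protein, was at 0.72 to 1.36 FPKM in Col-0, with 13.3 and 9.07 in Aa-0, and 1.95 and 2.1 in the hybrid (-1.23 ± 0.19, adjusted p = 0.0329), a call lost under 15 of 25 alternatives. Both hybrid libraries lay below every parental library in 4 of the 19 genes, against 2.73% of all tested genes.

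Noncoding RNAs were frequent among the departing genes. They made up 12 of the 40 found in the reference annotation (30.0%), against 0.771% of all tested genes and 3.26% of the genes on which the parents differ. AT2G35945 was at 1.85 to 4.77 FPKM in Col-0, at 30.4 and 24.1 in Aa-0, and 2.26 and 3.01 in the hybrid. Its hybrid libraries fell inside the Col-0 range, and its log2 difference of -2.16 ± 0.26 (adjusted p = 0.00801) was the furthest below the mid-parent among the called genes. AT5G63195 was at 2.79 to 3.96 FPKM in Col-0, against 40.2 and 29.2 in Aa-0, and 4.19 and 4.81 in the hybrid (-1.87 ± 0.16, adjusted p = 0.00166). AT2G23672 was at 38.3 to 49.2 FPKM in Col-0, with 131 and 153 in Aa-0, and 44.7 and 41.7 in the hybrid (-1.08 ± 0.12, adjusted p = 0.00763). AT4G37553 lay between the parents and differed from both, at 0.05 to 0.39 FPKM in Col-0, at 37.2 and 32.5 in Aa-0, and 6.07 and 6.13 in the hybrid. It was below the arithmetic mid-parent (-1.38 ± 0.16, adjusted p = 0.00763) and near the mean of the parental log2 levels (0.09).

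Many departing genes share their locus with another gene. Of the 40 called genes in the reference annotation, 30 (75%) overlap another annotated gene, against 33.2% of all tested genes. The library kit does not mark the strand, so reads from overlapping genes on opposite strands cannot be told apart. Of the 30, 27 had a tested partner on the opposite strand. The following counts on partners were chosen after the values were seen. Of 26 called genes with a parental difference and a tested partner, 19 (73.1%) had a partner called the opposite way between the parents, against 127 of 662 (19.2%) among all such genes. A fit without overlapping genes leaves out these 30, and 4 genes passed in it, 2 in each direction. Of the 10 named called genes that it still held, 6 no longer passed at unchanged log2 differences, with adjusted p from 0.0771 to 0.118.

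In several of these pairs the hybrid lay near Col-0 in both genes. The RNA that overlaps HYR1, AT3G21755, was at 13.3, 14.2, 16.7 and 17.0 FPKM in Col-0, against 0.11 and 0.19 in Aa-0, and 11.99 and 14.02 in the hybrid. It was thus high where HYR1 was low, although its own log2 difference from the mid-parent of 0.68 ± 0.13 did not pass (adjusted p = 0.118). YCF37, related to a cyanobacterial gene for photosystem I, overlaps AT2G23672 and was at 43.4 to 60.5 FPKM in Col-0, with 0.87 and 2.44 in Aa-0, and 54.2 and 50.4 in the hybrid (0.93 ± 0.23, adjusted p = 0.314). CDA1, a cytidine deaminase, was at 2.12 to 3.27 FPKM in Col-0, 0 in both Aa-0 libraries, and 2.92 and 3.83 in the hybrid (0.87 ± 0.14, adjusted p = 0.0499). Its antisense RNA AT2G19572 ran the other way, at 1.78 to 2.80 FPKM in Col-0, at 22.5 and 15.7 in Aa-0, and 3.14 and 3.72 in the hybrid (-1.41 ± 0.18, adjusted p = 0.0113). The same held for AT5G45470 and the RNA AT5G45472. The first was at 4.98 to 6.58 FPKM in Col-0, against 2.65 and 2.42 in Aa-0, and 7.82 and 7.92 in the hybrid (0.80 ± 0.11, adjusted p = 0.0172), and the second at 2.96 to 3.51, 15.5 and 18.0, and 4.25 and 4.38 (-1.05 ± 0.12, adjusted p = 0.00763).

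The partners described next did not pass against the mid-parent. HEI10, a meiotic crossover factor that overlaps MRD1, was at 1.62 to 2.08 FPKM in Col-0, with 8.28 and 9.30 in Aa-0, and 3.16 and 3.53 in the hybrid, above every Col-0 library (-0.54 ± 0.13, adjusted p = 0.33). AT3G52072, which overlaps AT3G52070, was at 0.80 to 1.23 FPKM in Col-0, at 5.91 and 5.61 in Aa-0, and 2.18 and 1.44 in the hybrid (-0.64 ± 0.16, adjusted p = 0.323). BLH1, a homeodomain gene that overlaps AT2G35945, was at 21.8 to 50.6 FPKM in Col-0, against 15.7 and 16.2 in Aa-0, and 23.3 and 24.6 in the hybrid. Its log2 difference was -0.09 ± 0.26. AT1G26220, an acyltransferase of the NAT family, was below the mid-parent at 5.82 and 6.10 FPKM in the hybrid, against 5.74 to 9.74 in Col-0 and 21.4 and 25.3 in Aa-0 (-1.22 ± 0.18, adjusted p = 0.0329), and its antisense RNA AT1G26218 was at 6.79 and 6.85, inside the Col-0 range of 5.47 to 9.89 and above the 0.55 and 0.33 of Aa-0 (0.68 ± 0.19, adjusted p = 0.461). AT1G76892, an RNA that overlaps the trihelix gene GT2, was at 3.72 and 4.11 FPKM in the hybrid, below all of Col-0 at 4.34 to 6.19 and Aa-0 at 17.7 and 13.9 (-1.22 ± 0.15, adjusted p = 0.0107). GT2 was at 5.62 to 7.91 FPKM in Col-0, at 0.73 and 1.1 in Aa-0, and at 4.89 and 5.4 in the hybrid (0.35 ± 0.19, adjusted p = 0.998).

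**Figure D3:**
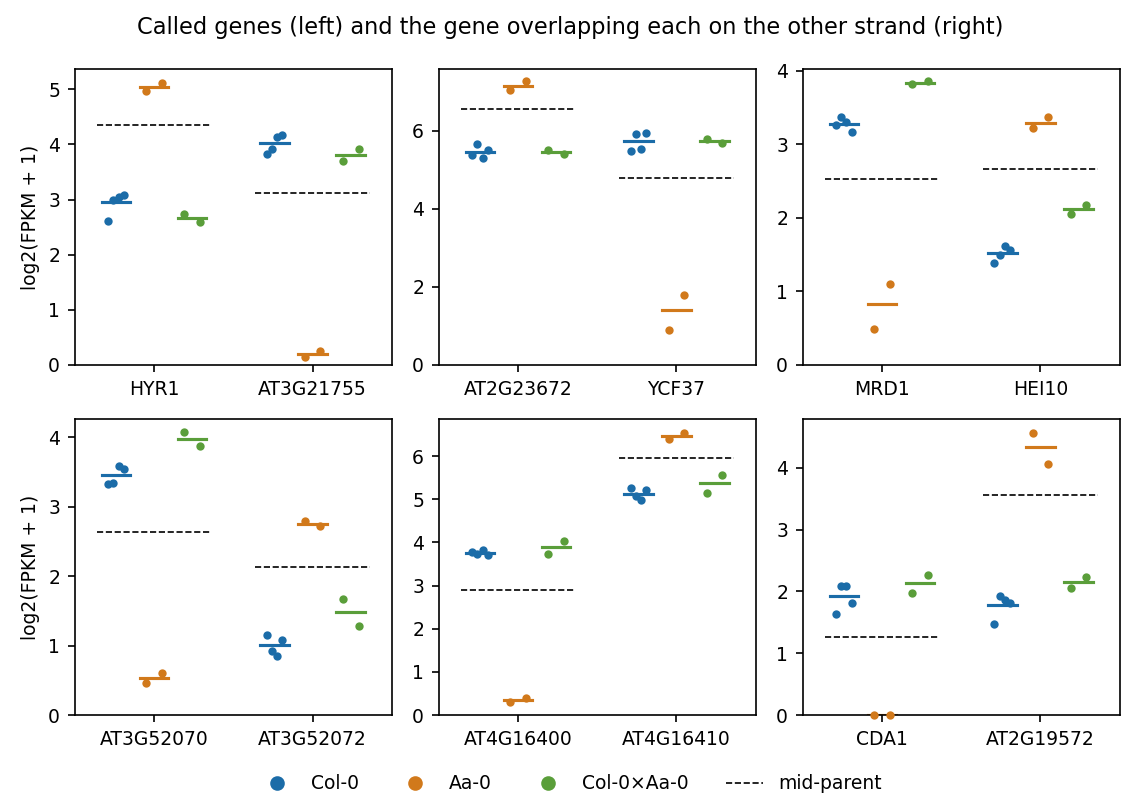
Level of 6 called genes (left in each panel) and of the gene that overlaps each on the opposite strand (right), as log2(FPKM + 1) on the vertical axis, with a point per library, a bar at each group mean and a dashed line at the mid-parent. In each panel the parents are ordered oppositely in the 2 genes, and the hybrid lies on the Col-0 side of both dashed lines.

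Expression outside both parents was rarer still. By limma, 8 genes (0.0473%) were above both parents and 0 (0%) below both. At an unadjusted p under 0.05 against each parent, the counts were 42 above and 34 below. Genes below both parents were called under other settings, with 14 below and 30 above for Col-0 replicates 1 and 2 alone, and 2 below and 10 above after quantile normalization. Without a test, both hybrid libraries lay below every parental library in 462 genes and above every one in 157. The 8 numbered 2 or 1 without the first or second hybrid library and 4 when overlapping genes were left out.

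NRPB12, a small subunit shared by the nuclear RNA polymerases, was the furthest above. It was at 0.76, 0.23, 0 and 0.22 FPKM in Col-0, at 0.77 and 0.29 in Aa-0, and at 4.76 and 6.0 in the hybrid. The groups did not overlap, and the log2 difference from the mid-parent was 2.17 ± 0.21 (SE; adjusted p = 0.00335). It overlaps a small nucleolar RNA on the same strand, and its call was lost with a pseudocount of 0.1 (adjusted p = 0.228). AT5G41680, a protein kinase, was at 0.27 to 0.57 FPKM in Col-0, with 0.09 and 0.07 in Aa-0, and 2.25 and 2.02 in the hybrid. This call held under all 21 alternatives run for it (1.35 ± 0.11, adjusted p = 0.00166). They do not include the fits without a hybrid library, because the gene reached 1 FPKM in the hybrid libraries alone. They also do not include the fit without overlapping genes, since AT5G41680 overlaps AT5G41685 on the opposite strand. AT5G41685 was far more abundant, ranging from 13.69 to 24.5 FPKM over the parental libraries, with 15.98 and 15.97 in the hybrid. The kit does not mark the strand, so reads from these overlapping genes cannot be told apart. AT2G32179, a noncoding RNA, was at 0.80 to 1.31 FPKM in Col-0, 0 in both Aa-0 libraries, and 3.0 and 4.8 in the hybrid. Its call held under all 23 alternatives run for it (1.69 ± 0.15, adjusted p = 0.00166). The fit without overlapping genes was not among them. PTAC18, which AT2G32179 overlaps, was at 6.26 to 11.4 FPKM in Col-0, at 26.9 and 40.6 in Aa-0, and 15.3 ± 3.2 (SD, n = 2) in the hybrid.

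The other genes above both parents were also low or modest in level. AT4G13615, a member of the SERF protein family, was the most abundant, at 9.51 to 14.4 FPKM in Col-0, against 9.26 and 11.1 in Aa-0, and 24.2 and 28.4 in the hybrid (log2 difference 1.17 ± 0.17, adjusted p = 0.0288). AT5G24980, an uncharacterized protein, was at 1.89 to 3.08 FPKM in Col-0, with 1.23 and 1.54 in Aa-0, and 5.51 and 7.01 in the hybrid (1.28 ± 0.15, adjusted p = 0.00763). AT1G48750, annotated as a lipid-transfer protein, was at 1.14 to 2.26 FPKM in Col-0, 0 in Aa-0, and 4.81 and 3.67 in the hybrid (1.51 ± 0.18, adjusted p = 0.0085). It overlaps delta-ADR on the opposite strand, which ranged from 7.24 to 8.21 FPKM over the parental libraries, with 7.57 and 7.16 in the hybrid. Reads from this pair cannot be told apart either. AT2G38240, an oxygenase dependent on 2-oxoglutarate and iron, was at 0.78 to 1.30 FPKM in Col-0, at 0.54 and 0.69 in Aa-0, and 2.37 and 2.86 in the hybrid. Its call was lost under 12 of 24 alternatives (0.97 ± 0.14, adjusted p = 0.0324). AT1G21020.1, which has no entry in the reference annotation, was at 0 in all Col-0 libraries, 0.44 and 0.69 FPKM in Aa-0, and 1.28 and 1.35 in the hybrid (0.85 ± 0.10, adjusted p = 0.00763). In all 8 genes both hybrid libraries lay above every parental library. Of the 8, NRPB12, AT5G41680 and AT1G21020.1 reached 1 FPKM in the hybrid libraries alone. The filter thus took them in through the hybrid, and the fits without a hybrid library left them out.

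**Figure D4:**
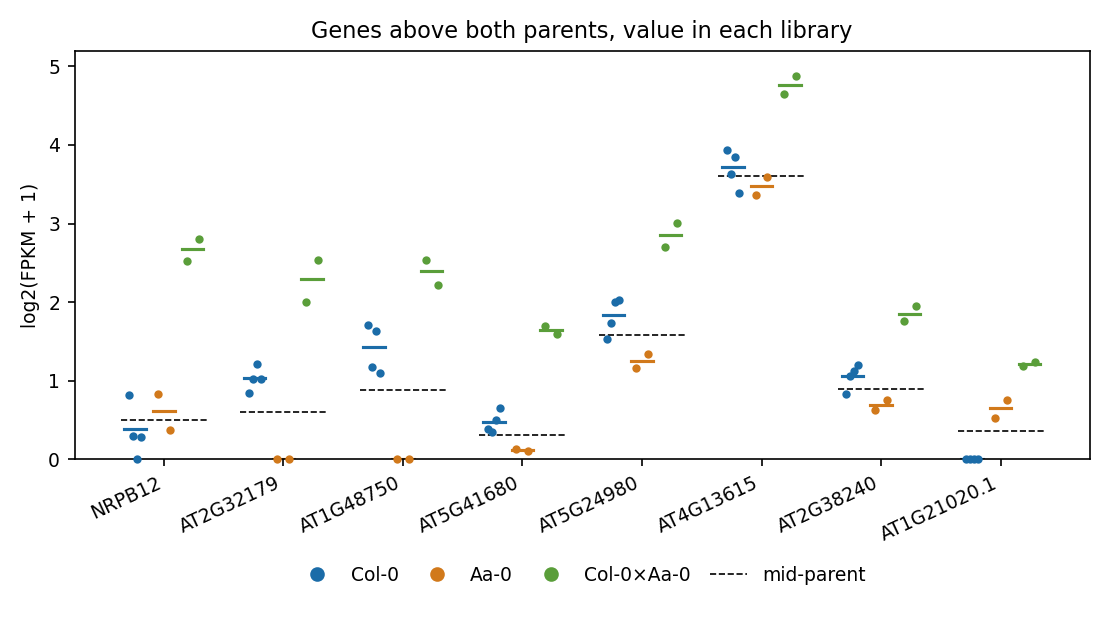
Level of the 8 genes called above both parents as log2(FPKM + 1) on the vertical axis, with a point for each library, a bar at each group mean and a dashed line at the mid-parent. In each gene the hybrid points lie above all Col-0 and Aa-0 points, and 7 of the 8 have a hybrid mean under 7 FPKM.

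With all Col-0 libraries, flowering-time genes were the one list with members that passed. Of 14 tested, SPL3 was above the mid-parent and MAF5 below it, against 0.242% called over all genes. A further 7 (50%) were held within 1.5-fold, against 69.3% of all genes, and 4 had an unadjusted p under 0.05. SPL3, a transcription factor that promotes the floral transition, was at 1.29 to 1.99 FPKM in Col-0, against 0.05 and 0.11 in Aa-0, and 2.57 and 2.20 in the hybrid. The hybrid was above every Col-0 library (log2 difference 0.86 ± 0.12, adjusted p = 0.0283), SPL3 overlaps an antisense RNA, and the call was lost under 12 of 23 alternatives. MAF5, a relative of the floral repressor FLC, was at 4.09, 6.36, 8.51 and 6.55 FPKM in Col-0, with 2.77 and 2.49 in Aa-0, and 1.60 and 0.90 in the hybrid. Both hybrid libraries lay below all parental libraries (-1.29 ± 0.21, adjusted p = 0.0442), and the call was lost under 16 of 25 alternatives. Its neighbours in function did not pass. MAF4 was at 0.92 to 1.66 FPKM in Col-0, at 1.89 and 1.39 in Aa-0, and 0.92 and 0.48 in the hybrid (-0.54 ± 0.15, adjusted p = 0.533). MAF2, MAF3 and FLM, close relatives whose reads may be shared between copies, had log2 differences of -0.02, -0.003 and 0.03 and were held within 1.5-fold. FLC itself was at most 0.26 FPKM in all 8 libraries and was not tested.

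Glucosinolate genes, which make and break the defence compounds of the mustard family, were the list in which the parents differed most. The parents differed in 18 of 25 tested members (72.0%), against 16.8% of all tested genes. Of the 18, 17 were higher in Col-0, as were 2041 of the 2837 over all genes. All 18 lay between the parents in the hybrid, at a median position of 0.35. Over all genes on which the parents differ, 2645 of 2837 lay between, at a median position of 0.55. By limma 0 passed against the mid-parent, 3 had an unadjusted p under 0.05, and 11 (44%) were held within 1.5-fold, beside 69.3% of all genes. ESM1, which limits nitrile formation, was at 450 to 661 FPKM in Col-0, against 37.9 and 41.7 in Aa-0, and 491 and 463 in the hybrid. The hybrid fell inside the Col-0 range, with a log2 difference of 0.71 ± 0.15 that did not pass (adjusted p = 0.148). It passed under 4 of 25 alternatives, among them the omission of Col-0 replicate 4 (adjusted p = 0.046) and Col-0 replicates 1 and 2 alone (0.90, adjusted p = 0.00621), but not replicates 3 and 4 alone (0.55, adjusted p = 0.169). ESP, which promotes nitrile formation, was at 19.2 to 21.7 FPKM in Col-0, with 767 and 738 in Aa-0, and 500 and 526 in the hybrid, a position of 0.67 (0.41 ± 0.13, adjusted p = 0.767).

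MAM1, BCAT4 and CYP79F1, which act in the synthesis of methionine-derived glucosinolates, are examples chosen after their values were seen. MAM1, the chain-elongating synthase, was at 62.7 to 84.8 FPKM in Col-0, at 31.4 and 21.6 in Aa-0, and 81.1 and 53.1 in the hybrid. BCAT4, the first aminotransferase of chain elongation, was at 27.5 to 37.3 FPKM in Col-0, against 7.61 and 5.77 in Aa-0, and 35.3 and 22.4 in the hybrid. CYP79F1, which makes the aldoximes, was at 40.2 to 59.7 FPKM in Col-0, with 10.8 and 10.3 in Aa-0, and 45.3 and 25.9 in the hybrid. In all 3 the first hybrid library lay within the Col-0 range and the second below it, and their positions were 0.13, 0.12 and 0.33, with none past the test (adjusted p = 0.998). The myrosinase TGG2 was at 226 to 267 FPKM in Col-0, at 133 and 107 in Aa-0, and 184 and 151 in the hybrid, held within 1.5-fold of the mid-parent.

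NLR immune receptors detect pathogen effectors, and many are known to be present in some accessions and absent from others. The parents differed in 12 of 22 (54.5%), against 16.8% of all tested genes. Of the 12, 11 were higher in Col-0, as were 2041 of the 2837 over all genes. Between the parents lay 11 of the 12, at a median position of 0.58 over the 12, beside 2645 of the 2837 and a median of 0.55. By limma 0 passed against the mid-parent, with 3 at an unadjusted p under 0.05, and 15 (68.2%) were held within 1.5-fold, beside 69.3% of all genes. RPP2A was at 12.4 to 15.1 FPKM in Col-0, 0 in both Aa-0 libraries, and 5.43 and 6.23 in the hybrid. RPM1 was at 3.77 to 6.08 FPKM in Col-0, 0 in Aa-0, and 1.91 and 1.81 in the hybrid. SNC1 was at 51.6 to 60.0 FPKM in Col-0, against 18.3 and 21.9 in Aa-0, and 35.8 and 34.5 in the hybrid. All 3 were held within 1.5-fold with no overlap between the hybrid and either parent, although SNC1 has close relatives that may share its reads. RPS2 and ADR1 stood furthest from the mid-parent in the list. RPS2 was at 1.06 to 1.78 FPKM in Col-0, with 0.13 and 0.15 in Aa-0, and 1.66 and 1.45 in the hybrid (0.57 ± 0.13, adjusted p = 0.286). It passed with Col-0 replicates 1 and 2 alone (0.62, adjusted p = 0.0395) and not with replicates 3 and 4 alone (0.52, adjusted p = 0.46). ADR1 was at 5.42 to 10.7 FPKM in Col-0, at 0.07 and 0.12 in Aa-0, and 1.16 and 2.42 in the hybrid (-0.77 ± 0.25, adjusted p = 0.801).

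Among genes of silencing, translation and the cell cycle, 0 of the tested members passed by limma. Of 20 tested genes of DNA methylation and small RNA silencing, 19 (95%) were held within 1.5-fold, the exception being CMT2, with a log2 difference of -0.33 ± 0.19. Of 17 cytosolic ribosomal protein genes, 14 (82.4%) were held, and 8 differed between the parents. All 8 were higher in Col-0, as were 2041 of the 2837 over all genes. All 8 lay between the parents in the hybrid, as did 2645 of the 2837. RPS6B was at 132 to 144 FPKM in Col-0, against 69.1 and 97.1 in Aa-0, and 99.7 and 131 in the hybrid. RPS5A and RPL16B had the largest log2 differences of the list, 0.35 ± 0.16 and 0.26 ± 0.16, and neither passed. Of 24 cell cycle genes, 17 (70.8%) were held, where all genes gave 69.3%. A positive difference was found in 5, beside 5915 of all 16924 genes, with a list median of -0.14 against -0.06 over all genes. CDKB2;1, a mitotic kinase, was at 2.08 to 2.57 FPKM in Col-0, 2.1 in both Aa-0 libraries, and 1.51 and 1.49 in the hybrid. Both hybrid libraries were below every parental library, and its log2 difference of -0.36 ± 0.09 did not pass (adjusted p = 0.332). CYCD3;2, a cyclin of leaf proliferation, was at 18.76 to 19.97 FPKM in Col-0, with 5.19 and 6.67 in Aa-0, and 11.3 and 10.4 in the hybrid, held within 1.5-fold. The 3 lists had 0, 0 and 1 members at an unadjusted p under 0.05.

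Photosynthesis genes also stayed close to the mid-parent. Of 36 tested, 28 (77.8%) were held within 1.5-fold, beside 69.3% of all genes. A positive difference was found in 23, beside 5915 of all 16924 genes, and the list median was 0.08, against -0.06 over all genes. By limma 0 passed, with 1 at an unadjusted p under 0.05. That gene was RBCS1B, a Rubisco small subunit gene with near-identical copies, at 1137 to 1319 FPKM in Col-0, at 1571 and 1666 in Aa-0, and 943 and 1204 in the hybrid (-0.41 ± 0.12, adjusted p = 0.606). PSAF, a photosystem I subunit, was at 3845 to 5061 FPKM in Col-0, against 4507 and 5737 in Aa-0, and 6576 and 5315 in the hybrid (0.30 ± 0.16, adjusted p = 0.998). RBCS1A, with its listed zeros in Col-0, had an interval from -8.64 to 9.44 and gave no usable comparison. With Col-0 replicates 1 and 2 alone, where it was listed at 0, it passed (0.94, adjusted p = 0.0233), and with replicates 3 and 4 it did not (0.01, adjusted p = 0.995).

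Lists tied to the time of day or to stress were poorly resolved. Only 3 of 21 clock genes, 1 of 15 cold and drought genes, 1 of 14 starch genes and 3 of 20 jasmonate genes were held within 1.5-fold, and by limma 0 passed in each, with 0 at an unadjusted p under 0.05. CCA1 stood at 22.8 and 25.4 FPKM in Aa-0 and 17.36 and 19.33 in the hybrid, between the pairs of Col-0 libraries. Its log2 difference was -1.15 ± 0.98 with all Col-0 libraries, -1.83 with replicates 1 and 2 alone (adjusted p = 0.000913) and 0.15 with replicates 3 and 4 alone (adjusted p = 0.926). LHY, its partner, went from -2.38 (adjusted p = 0.000324) to 0.37 (adjusted p = 0.609) in the same way. GBSS1, the granule-bound starch synthase, showed the same split of Col-0, with 94.7 and 98.5 FPKM against 7.18 and 7.92, and had 23.42 and 27.99 in Aa-0 and 16.6 and 16.9 in the hybrid. Its log2 difference was -1.81 with replicates 1 and 2 alone (adjusted p = 0.000432) and 0.0096 with replicates 3 and 4 alone (adjusted p = 0.993). RVE8, a clock activator, gave -1.86 (adjusted p = 0.00236) and -0.07 (adjusted p = 0.976). TOC1 and GI, evening clock genes, had log2 differences of -0.47 ± 0.74 and 0.05 ± 0.52. The labels used here give no time of harvest, and its part in these values was not tested.

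The remaining lists had 0 members called by limma and 0 at an unadjusted p under 0.05. They were chlorophyll synthesis (8 of 15 held within 1.5-fold), sugar status (4 of 12), salicylic acid and immune response (6 of 16), leaf growth regulators (6 of 19), auxin and PIF targets (7 of 25), heat shock (1 of 9) and flavonoids (1 of 8). With Col-0 replicates 1 and 2 alone, the flavonoid enzymes TT4 (-1.71, adjusted p = 0.0294) and F3H (-0.94, adjusted p = 0.00816) and the leaf regulator TCP3 (0.89, adjusted p = 0.0204) passed. With replicates 3 and 4 alone their log2 differences were 0.06, -0.14 and 0.19, and none of these 3 passed (adjusted p = 0.984, 0.931 and 0.925). The growth regulator ARGOS was at 0.73 to 3.31 FPKM in Col-0, with 1.42 and 1.46 in Aa-0, and 1.27 and 1.80 in the hybrid (-0.08 ± 0.29). PIF4, a regulator of elongation growth, was at 86.6 to 108 FPKM in Col-0, at 141 and 91.4 in Aa-0, and 109 and 89.6 in the hybrid, held within 1.5-fold. PR1, a marker of salicylic acid signalling, was at 0.06 to 1.67 FPKM in Col-0, against 0.69 and 1.35 in Aa-0, and 0.07 and 3.83 in the hybrid, whose libraries lay near the low end of the parents and above both. The stomatal markers were also not called, with 2 of 5 tested at an unadjusted p under 0.05, and their sum was 35.3 and 42.0 FPKM in the hybrid, against 39.7 to 53.9 in Col-0 and 45.4 to 57.9 in Aa-0; the part of these cells in the other results was not tested.

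**Figure D5:**
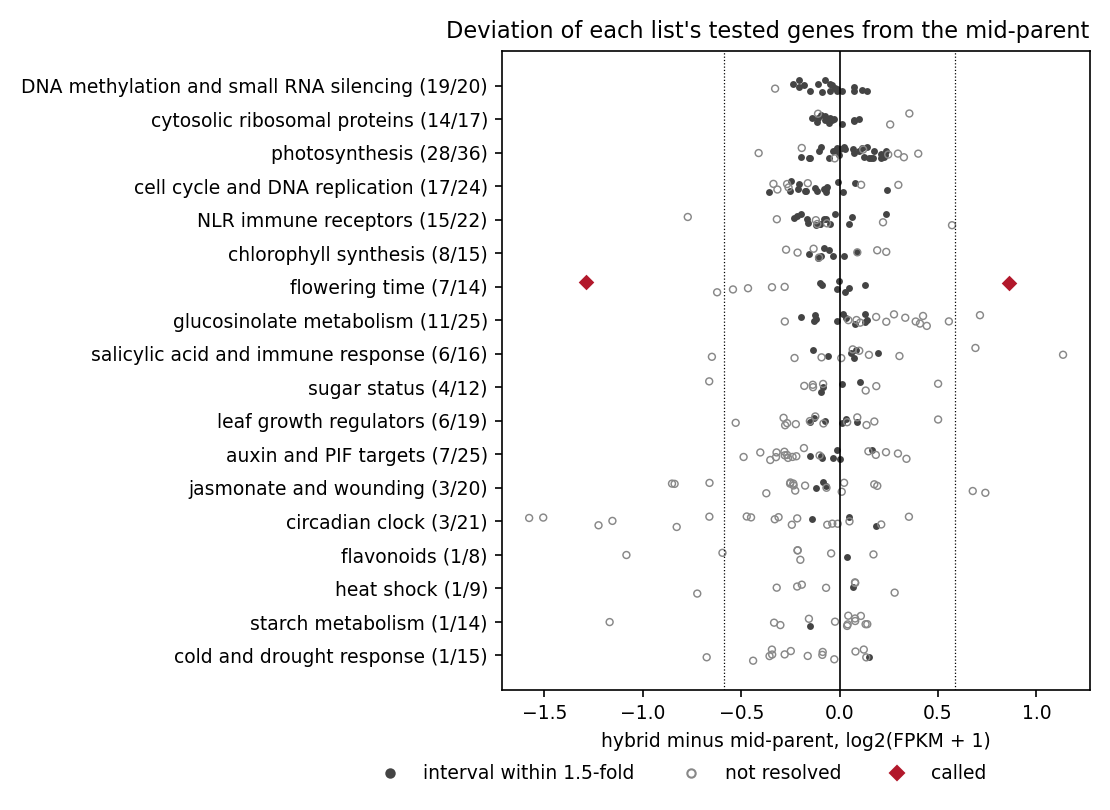
Log2 difference between hybrid and mid-parent (horizontal axis, on the log2(FPKM + 1) scale) for each tested gene of 18 lists, with dotted lines at 1.5-fold and, in brackets, the number held within 1.5-fold of those tested. Filled points are held within 1.5-fold, open points are not resolved, and the 2 diamonds are the called genes SPL3 and MAF5.

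The second hybrid of the series shares the Col-0 parent and its libraries, so its values are given only beside those above. HYR1 was at 26.2 and 31.3 FPKM in Per-1 and 5.17 and 4.26 in Col-0×Per-1, a log2 difference from that hybrid's mid-parent of -1.71. AT2G47115 was at 43.6 and 38.8 FPKM in Per-1 and 5.50 and 5.71 in that hybrid, and AT4G16400 was at 0.21 and 0.15, and 15.02 and 13.32. The difference between the hybrids in their departure from the mid-parent passed for 13 of 16924 genes (0.0768%). NRPB12 was among them, at 0.27 and 0.48 FPKM in Per-1 and 0 in both Col-0×Per-1 libraries. AT5G41680 was at 0.13 and 0.17 FPKM in Per-1 and 0.21 and 0.32 in Col-0×Per-1, where the Col-0×Aa-0 hybrid had 2.25 and 2.02. Both genes passed the filter through the Col-0×Aa-0 libraries alone, which favours a higher level in that hybrid.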

How the data were processed

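First-leaf RNA was made into TruSeq RNA v2 libraries, which do not mark strand, and read on a HiSeq instrument, per the labels' protocols. The values were FPKM as deposited by the authors, to 2 decimals. The submitters' processing notes name the genome build TAIR10, edgeR 3.12.0, Cufflinks 2.0.2 and TopHat2 2.0.8b, beside TopHat with no version. Which of them made the FPKM is not given in the sources used here. TAIR10 derives from Col-0, and its effect on Aa-0 values was not tested. Where the series' design text and the labels disagreed on the second accession and on the number of Col-0 libraries, the labels were used.

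Genes that reached 1 FPKM in 2 or more of the 8 libraries were fitted on log2(FPKM + 1) with limma 3.58.1 in R 4.3.3, as means of 5 groups over 12 libraries (7 residual degrees of freedom, trended eBayes). Fold changes on this scale understate changes of low genes. The difference was log2(hybrid mean + 1) minus log2(mid-parent + 1), with delta-method standard errors, moderated 95% intervals, and Benjamini-Hochberg adjustment over all genes tested (threshold 0.05). The same fit gave the contrasts between groups and the difference between the hybrids. The fit was tested on simulated data. Python 3.11.15, pandas 2.3.3 and matplotlib 3.10.9 made tables and plots. Names and overlaps came from a TAIR10.1 annotation that held 31416 of the 34133 identifiers, and no coordinates or sequences are given.

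The genes named were up to 12 per direction with the largest called differences (at least 5 FPKM in the hybrid or mid-parent), those outside both parents, up to 2 per list, the widest parental differences (at least 20 FPKM) and CCA1, LHY, TOC1, GI, PIF4, FLC, PR1, ARGOS and RBCS1A. Other genes, among them the overlap partners, CDA1, MAF2, MAF3, MAF4, FLM, CMT2, GT2 and the further glucosinolate, immune receptor, ribosomal and cell cycle examples, were chosen after their values were seen. Members and lists were chosen with earlier results of these data known, and lists are described by counts alone. Alternatives covered scaling, pseudocount, filters, the mid-parent, the Col-0 libraries, the spread, a replicate block, overlapping genes and each library left out.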

Additional observations from a re-analysis of the deposited data

Results flagged for a closer look

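In 7 of the 80 named genes tested, the departure from the mid-parent differed between the hybrids by limma, against 13 of 16924 genes tested (0.0768%). Of the 7, 6 are among the 29 genes named for a large departure in Col-0×Aa-0 or a level outside both parents, a choice that raises this count. Both hybrids share the Col-0 libraries, which the test took into account. NRPB12 and AT5G41680 reached 1 FPKM in the Col-0×Aa-0 libraries alone. The filter thus took them in through that hybrid, so their tests between the hybrids lean towards a higher level there. The difference, Col-0×Aa-0 minus Col-0×Per-1 on the log2 scale, was 2.59 ± 0.28 (SE) for NRPB12 (adjusted p = 0.0173), 1.34 ± 0.18 for MRD1 (adjusted p = 0.045) and 1.35 ± 0.15 for AT5G41680 (adjusted p = 0.0173). MRD1 was at 0.30 and 0.11 FPKM in Per-1 and at 4.44 and 4.29 in Col-0×Per-1, near that hybrid's mid-parent. The difference was 1.46 ± 0.19 for AT2G38240 (adjusted p = 0.0404), which was at 0.29 and 0 FPKM in Col-0×Per-1. It was -1.86 ± 0.23 for AT4G37553 (adjusted p = 0.0301) and -1.59 ± 0.17 for AT5G45472 (adjusted p = 0.0173). AT5G45472 was at 15.33 and 18.22 FPKM in Per-1 and at 16 and 13.99 in Col-0×Per-1, against 4.25 and 4.38 in Col-0×Aa-0. The seventh gene, HPL1, departed in the other hybrid. It was at 54.1 and 69.8 FPKM in Per-1 and at 3.11 and 3.01 in Col-0×Per-1, a log2 difference from that mid-parent of -3.01, whereas it was at 56.9 and 38.5 in Col-0×Aa-0 (-0.25 ± 0.22), and the hybrids differed by 2.75 ± 0.32 (adjusted p = 0.0208).

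In 1 named gene a single library was flagged as apart from its group. EXPA5, a cell-wall expansin of growing leaves, was at 13.8 FPKM in Col-0 replicate 4 and at 8.24, 8.15 and 8.80 in the other Col-0 libraries. Of 80 named genes screened over the 4 Col-0 libraries it was the 1 found, a smaller share than the about 1 gene in 20 that chance alone gives.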

How the results depend on the processing

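Of 31 named genes called against the mid-parent, 4 (AT2G32179, AT2G47115, AT5G41680 and AT5G63195) were called under every alternative run for them. For AT5G41680 the fits without a hybrid library were not among these, since it did not pass their filter. The fit without overlapping genes left out AT2G32179, AT5G41680 and AT5G63195, each of which overlaps another gene, so it did not test these calls. Differences called in at least 1 of the fits changed sign for AT4G37553 (0.094), AT3G62530 (2.63) and HPL1 (1.58), with the mid-parent as the mean of log2 values, which lies far below the arithmetic mean where a parent is near 0. Another 30 values, called in neither fit, also changed sign, and 18 named genes had at least 1 such value.

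The 41 calls (22 above, 19 below) became 62 (32 below) with quantile normalization, 26 (11 above) with a pseudocount of 0.1, 63 (35 above) with no filter, 19 (8 above, 11 below) at 5 FPKM or more, 114 (98 above) with the mean of log2 values, 368 (106 above, 262 below) with Col-0 replicates 1 and 2 alone, 11 (5 above, 6 below) with the spread of 8 libraries and 4 (2 above, 2 below) without overlapping genes. With Col-0 replicates 3 and 4 alone 31 were below. Genes within 1.5-fold numbered 9243 with a pseudocount of 0.1, 19108 with no filter and 7712 without overlapping genes. Genes outside both parents numbered 4 with a pseudocount of 0.1, 20 with no filter, 2 at 5 FPKM or more, 44 with Col-0 replicates 1 and 2 alone and 4 without overlapping genes. The position of Col-0-high genes was 0.49 with median-ratio scaling, 0.49 with quantile normalization and 0.60 with Col-0 replicates 1 and 2 alone. Where the construction does not show it, the cause was not tested.

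Over omissions of single libraries, calls ran from 4 to 34 (1 to 19 above, 3 to 17 below), genes within 1.5-fold from 7739 to 11972, genes outside both parents from 1 to 10, and the positions from 0.49 to 0.576 and from 0.393 to 0.474. The lowest counts came without a hybrid library (6 and 4 calls). Calls were 16 and 24 without Aa-0 replicate 1 or 2, 23 without either Per-1 library and 27 without either Col-0×Per-1 library, which enter the spread alone.

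Replicate numbers were not taken to pair the samples. In deviations from group means, same-numbered libraries correlated between -0.168 and 0.0147 for the hybrid with each parent. The values were 0.117 and -0.197 for Col-0 with Aa-0, and between -0.591 and 0.375 over all groups. Deviations in a group of 2 are equal and opposite, and those of Col-0 carry the split of its pairs. The correlations therefore cannot decide whether samples were paired. With a replicate block there were 236 calls (69 above, 167 below) and 33 genes outside both parents (26 above, 7 below). The higher replicate numbers occur in Col-0 alone, so with the block the Col-0 level rests on Col-0 replicates 1 and 2. The log2 differences of CCA1 (-1.83), LHY (-2.38) and GBSS1 (-1.81) were the same with the block as with those replicates alone. The block thus cannot separate an effect of pairing from the choice of Col-0 libraries.

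Depth is unknown, and with 2 hybrid libraries a median gene is resolved only to a log2 difference of 0.33.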
